A study of Arabidopsis thaliana with 8 samples.

Results

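The transcripts described here are those of the nuclear photosystem and antenna genes of Arabidopsis thaliana, accession Col-0 (wild type). A probe set was taken as a member when it is assigned to a gene of nuclear chromosomes 1 to 5 and its deposited annotation contains the word photosystem or the words chlorophyll A-B binding, leaving out 2 early light-induced genes. This rule gave 44 probe sets for 48 genes, of 22746 probe sets in all: 40 probe sets are assigned to 1 gene and 4 are shared by 2 genes, whose transcripts cannot be told apart. The rule used the annotation and no measured value, but the members were chosen with earlier results of these data known. Priming began with 5-day-old seedlings: a first heat step of 37 °C lasted 1.5 h, a break of equal length at 22 °C followed, and a second step of 44 °C lasted 45 min. The seedlings then went back to growth conditions for 4, 8, 24 or 48 h, the memory phase. Unprimed seedlings were harvested at the same labelled times without this heat regime. All seedlings grew on sucrose medium at 22 °C with 16 h of light and 8 h of darkness per day. According to the study's methods the heat steps took place in darkness, and the handling of unprimed seedlings during these steps is not described. Each of the 8 conditions was 1 Affymetrix ATH1 array of 1 pool of whole seedlings, so a difference at a single time has no replicate check and no test. In whole seedlings, fewer cells of a type and less RNA per cell cannot be told apart.

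Photosystem II splits water and photosystem I reduces ferredoxin, and both sit in the thylakoid membrane of the chloroplast. Each has a core of plastid-encoded and nuclear-encoded subunits and is surrounded by antenna proteins of the LHC family, which bind chlorophyll a and b and pass light energy to the core. The LHC genes are all nuclear, are among the most strongly expressed genes of green tissue, and are known to respond to light, to the circadian clock and to the state of the chloroplast. Other nuclear proteins assemble and repair the photosystems without being part of the finished complex.

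Values are given on the deposited log2 scale, on which an increase of 1 is a doubling of the signal and 2 is the floor. The array medians lay between 6.99 and 7.08, the array maxima between 15.66 and 15.77, and 26.3 to 26.9% of an array's probe sets were within 0.05 of the floor. The members were bright: 33 of 44 were above 10 in all 8 arrays and 19 were above 13. RBCS2B, read by a probe set shared with other genes of the Rubisco small subunit, had values of 15.24 to 15.43 in primed and 15.37 to 15.53 in unprimed arrays. RCA, which encodes Rubisco activase, had 13.28 to 14.38 and 13.79 to 14.24. The seedlings thus carried these mesophyll markers. A bright member close to the array maximum has little room for a higher value, and the part of this limit in the results was not tested. The unprimed arrays of 24 and 48 h, which lie 24 h apart by their labelled times (the hours of harvest are not stated), gave a view of differences without priming: none of the 44 members differed 2-fold between them in either direction (1.55% of all probe sets were higher and 1.17% lower at 48 h), and the median absolute difference of the members was 0.12.

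At 8 h into the memory phase the photosystem and antenna transcripts were mostly lower in primed seedlings, whereas at 4 h they were evenly spread and at 24 and 48 h nearly level. The median log2 difference of the members, primed minus unprimed, was -0.01, -0.39, -0.07 and -0.04 in the order of the 4 times. The median over all probe sets was 0.00 at each time. At 8 h, 11 members were at least 2-fold lower in primed seedlings, against 7.91% of all probe sets, and 3 were at least 2-fold higher, against 7.33%. At 4 h, 2 members were at least 2-fold lower (9.93% of all probe sets) and 3 higher (9.36%), shares below the background. At 24 h, 1 was lower (1.67%) and 1 higher (2.76%), and at 48 h there were 0 of either (0.932% lower and 0.747% higher). In all, 17 of 44 members passed 2-fold at some time (27.2% of all probe sets), 20 stayed within 1.5-fold at all times (52.8%), and 39 were within 1.5-fold at both 24 and 48 h (83.8%).

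**Figure D1:**
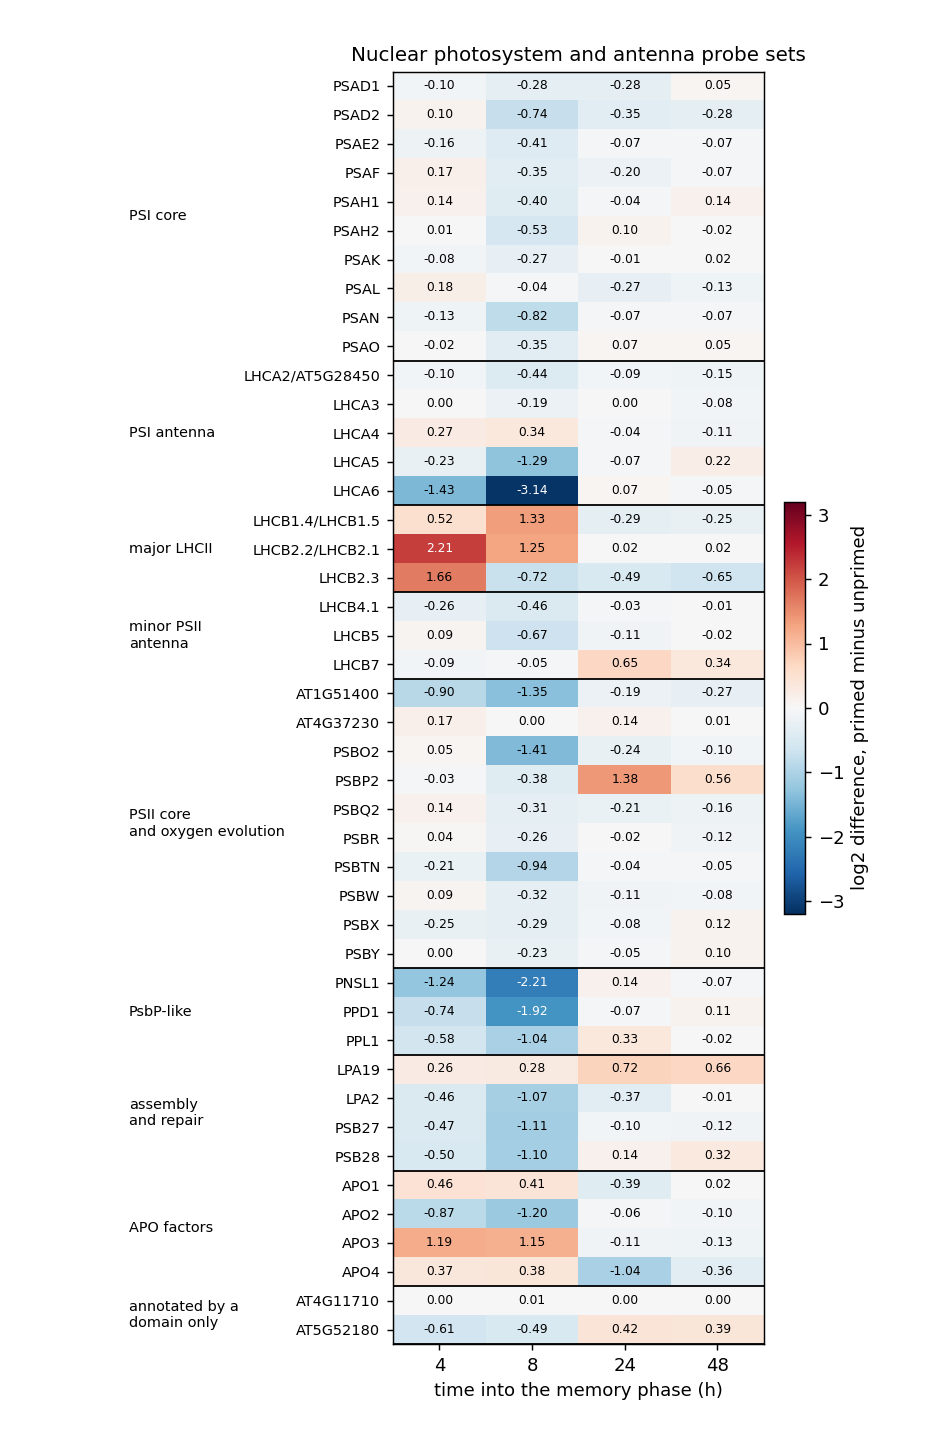
Log2 difference between the primed and the unprimed array (colour and printed value) of the 44 member probe sets, in rows by role, at 4, 8, 24 and 48 h in columns, with 1 array per condition. The 8 h column is mostly blue (35 of 44 members below 0), LHCA6 and PNSL1 hold the lowest values (-3.14 and -2.21), and the 24 and 48 h columns are pale.

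Differences of any size were counted by their sign as well. At 8 h, 35 of the 44 differences were below 0 (36.0% of all probe sets, many of which sit at the floor with a difference of 0), as were 22 at 4 h (39.9%), 30 at 24 h (38.2%) and 27 at 48 h (38.0%). At 8 h, 16 members were at least 1.5-fold lower (14.6%). Bright probe sets are the closer background for these genes. Of 3547 probe sets above 10 in all arrays, 54.7% were below 0 at 8 h and 6.63% at least 2-fold lower, with a median of -0.07. The 33 members among them had 29 below 0, 8 at least 2-fold lower and a median of -0.41. At 4 h the bright members had a median of -0.02 and the bright background one of -0.11. Nearest to the 2-fold limit at 8 h were PPL1 (-1.04) inside and PSBTN (-0.94) outside. When the arrays were centred on 7 reference probe sets, the median of all probe sets became -0.26 at 4 h and -0.14 at 8 h and that of the members -0.27 and -0.53, so that the members lay at the background at 4 h and below it at 8 h.

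**Figure D2:**
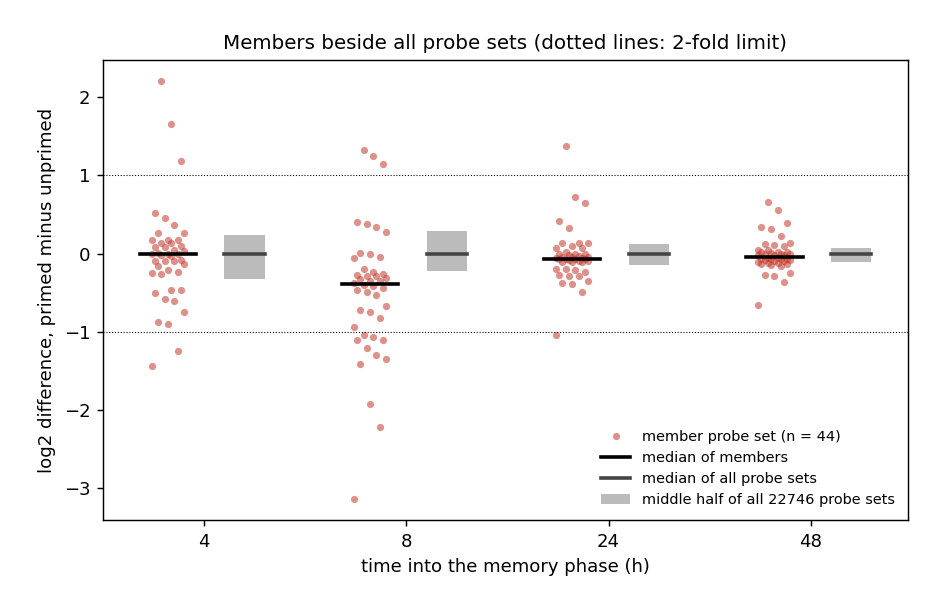
Log2 difference, primed minus unprimed, at each time (x axis, evenly spaced) for the 44 members (points, with their median as a black line) beside all 22746 probe sets (grey box from the lower to the upper quartile, with its median). The members' median is -0.39 at 8 h, where their lower points reach -3.14, and lies within 0.07 of 0 at the other times.

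The antenna of photosystem I held the lowest difference of all members. LHCA6, a rare antenna protein that helps to attach photosystem I to the chloroplast NADH dehydrogenase-like (NDH) complex, had log2 values of 8.32, 7.62, 9.82 and 9.78 in primed seedlings at 4, 8, 24 and 48 h, against 9.75, 10.76, 9.75 and 9.83 in unprimed seedlings. Both early primed arrays thus lay below every unprimed array, and the differences were -1.43, -3.14, 0.07 and -0.05. LHCA5, the other rare antenna protein with this linking role, had 11.65, 11.09, 12.29 and 12.25 in primed and 11.88, 12.38, 12.36 and 12.03 in unprimed seedlings, a difference of -1.29 at 8 h. The abundant antenna proteins that make up the belt of photosystem I differed less. LHCA3 gave 0.00, -0.19, 0.00 and -0.08, the probe set shared by LHCA2 and AT5G28450 gave -0.10, -0.44, -0.09 and -0.15, and LHCA4 was slightly higher early, with 0.27 and 0.34 at 4 and 8 h and -0.04 and -0.11 at 24 and 48 h. At 8 h, then, the 2 linker genes were past 2-fold and the 3 probe sets of the belt were within 1.5-fold.

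All 3 PsbP-like members were at least 2-fold lower in primed seedlings at 8 h. They resemble the oxygen-evolving subunit PsbP in sequence and act elsewhere in the thylakoid. PNSL1, a lumenal subunit of the NDH complex, had 10.82, 10.29, 12.06 and 12.23 in primed and 12.06, 12.50, 11.92 and 12.30 in unprimed seedlings (differences -1.24, -2.21, 0.14 and -0.07). PPD1, which is needed to assemble photosystem I, had 9.73, 8.93, 10.78 and 10.87 in primed and 10.47, 10.85, 10.85 and 10.76 in unprimed seedlings (-0.74, -1.92, -0.07 and 0.11). For PPL1, a protein of photosystem II repair, primed arrays read 12.03, 11.79, 12.63 and 12.59 and unprimed arrays 12.61, 12.83, 12.30 and 12.61 (-0.58, -1.04, 0.33 and -0.02). For PNSL1 and PPD1 the 2 early primed arrays were lower than all other 6 arrays. Of all members, PNSL1 and LHCA6 alone passed the 2-fold limit downward at both early times. PPL1 at 8 h was just past the limit and fell short of it with quantile normalization (-0.95) and against the mean of the 4 unprimed arrays (-0.80). PNSL1 and PPD1 stayed past it in both. The smaller value of PPL1 against that mean was fixed in advance, because its unprimed 8 h array was the highest of the 4.

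**Figure D3:**
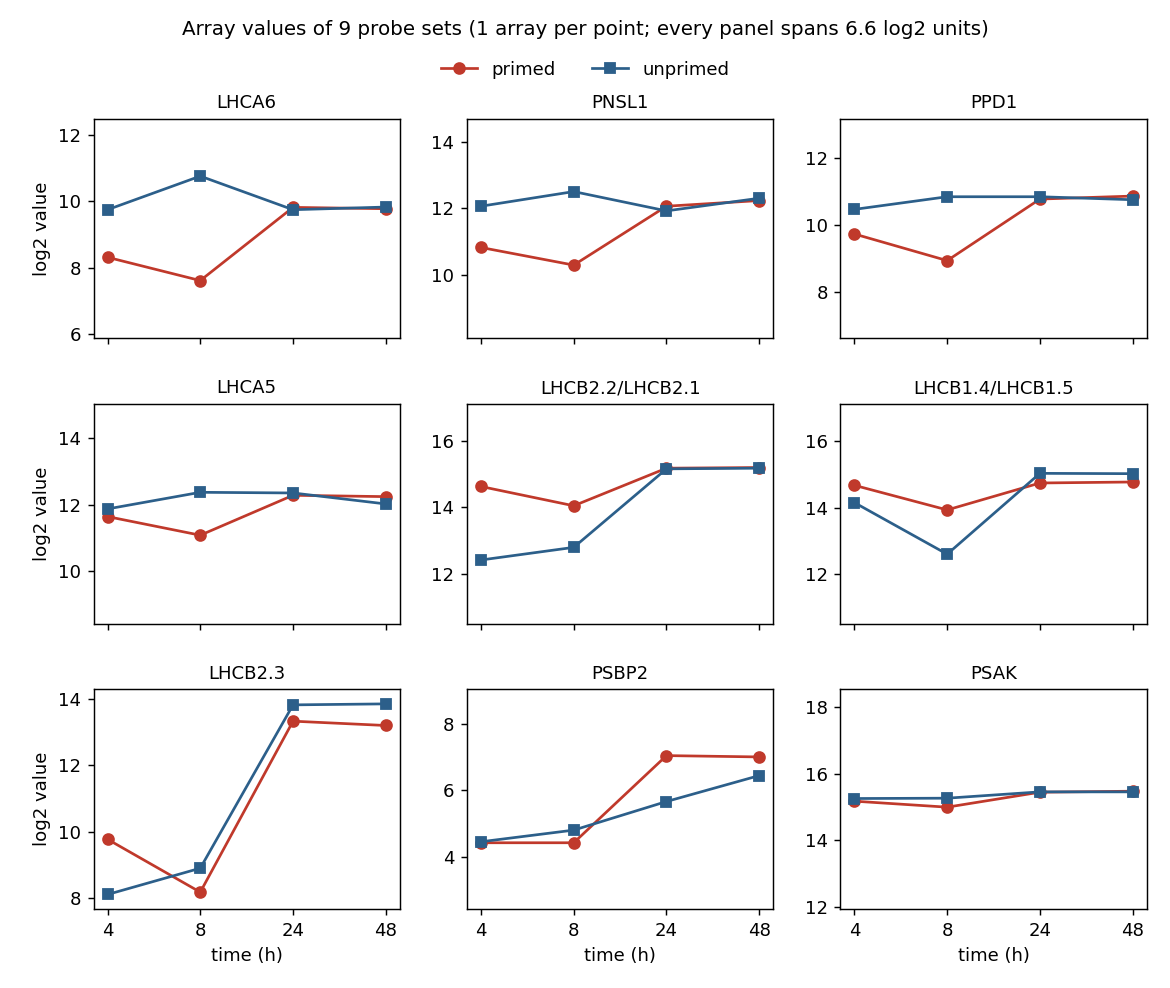
Log2 values of 9 member probe sets in primed (circles) and unprimed (squares) seedlings at 4, 8, 24 and 48 h (x axis, evenly spaced), 1 array per point and no error bars, with each panel spanning the same log2 range. LHCA6, PNSL1, PPD1 and LHCA5 dip in the primed arrays of 4 and 8 h, LHCB2.2/LHCB2.1 is higher there (14.62 and 14.04 primed against 12.41 and 12.79 unprimed), and PSAK is nearly flat.

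The major antenna of photosystem II is the trimeric LHCII, encoded by LHCB1, LHCB2 and LHCB3 genes, and 2 of its 3 member probe sets were at least 2-fold higher in primed seedlings at 4 h and 2 at 8 h. The probe set shared by LHCB2.2 and LHCB2.1 had 14.62, 14.04, 15.17 and 15.19 in primed seedlings, against 12.41, 12.79, 15.15 and 15.17 in unprimed seedlings. The differences of 2.21 at 4 h and 1.25 at 8 h arose from low early unprimed arrays, while the late arrays of both treatments were equal within 0.02. The probe set shared by LHCB1.4 and LHCB1.5 had 14.67, 13.93, 14.74 and 14.77 in primed and 14.15, 12.60, 15.03 and 15.02 in unprimed seedlings, a difference of 1.33 at 8 h and of -0.29 and -0.25 at 24 and 48 h. LHCB2.3, an LHCB2 gene with a probe set of its own, had 9.78, 8.19, 13.33 and 13.20 in primed and 8.12, 8.91, 13.82 and 13.85 in unprimed seedlings. It was 1.66 higher at 4 h and differed by -0.72, -0.49 and -0.65 at the later times. These 3 probe sets supplied 2 of the 3 members past 2-fold higher at 4 h and 2 of the 3 at 8 h. The remaining one at both times was APO3, which fell short of 2-fold at 4 h with centring on the reference genes (0.93) and at 8 h against the mean of the 4 unprimed arrays (0.91). Against the mean of the 4 unprimed arrays the major LHCII differences of the early times were no longer past 2-fold higher: LHCB2.2/LHCB2.1 gave 0.74 and 0.16, LHCB1.4/LHCB1.5 at 8 h turned to -0.27, and LHCB2.3 at 4 h turned to -1.40. That control includes the late unprimed arrays, in which all 3 probe sets and APO3 were brighter than in the early ones. Lower values were therefore fixed in advance, and they cannot check the early differences. For LHCB1.1, LHCB1.2 and LHCB1.3, whose shared probe set lies outside the annotation rule, the differences were -0.08, -0.27, 0.00 and -0.02, so genes of the same LHCII subunit differed in sign at 8 h. LHCB3, also outside the rule, gave 0.41, -0.06, -0.09 and -0.04. Over all 5 LHCII probe sets the median at 8 h was -0.06, with 3 below 0.

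The minor antenna proteins join the LHCII trimers to the core of photosystem II, and the 3 members among them stayed within 2-fold. LHCB4.1 gave -0.26, -0.46, -0.03 and -0.01 and LHCB5 gave 0.09, -0.67, -0.11 and -0.02. LHCB7, a rarely expressed gene of this family, had 6.59, 7.91, 7.53 and 7.44 in primed and 6.68, 7.96, 6.88 and 7.10 in unprimed seedlings (-0.09, -0.05, 0.65 and 0.34), and was the only minor antenna member higher at 24 and 48 h.

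The subunits of the photosystem I core differed within a narrow band. None of the 10 members passed 2-fold at any time, and all 10 were below 0 at 8 h, with a median of -0.38 and a range of -0.82 to -0.04. At 4 h they lay between -0.16 and 0.18. PSAN, which binds plastocyanin on the lumen side, had the lowest value at 8 h (-0.82), with 13.89 in the primed and 14.71 in the unprimed array. PSAD2, one of the ferredoxin-docking subunits, had the lowest mean of this group, with 12.09, 11.24, 13.26 and 13.18 in primed and 11.99, 11.98, 13.61 and 13.46 in unprimed seedlings (0.10, -0.74, -0.35 and -0.28). PSAH1, part of the docking site for mobile LHCII, had the highest mean of this group (0.14, -0.40, -0.04 and 0.14). PSAK, among the brightest members, read 15.18, 15.00, 15.45 and 15.48 in primed and 15.26, 15.27, 15.46 and 15.46 in unprimed seedlings.

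Among the 10 members of the photosystem II core and the oxygen-evolving complex, 9 were below 0 at 8 h with a median of -0.32, and 2 were at least 2-fold lower. PSBO2, the less expressed form of the manganese-stabilizing subunit PsbO in Arabidopsis, had 12.25, 11.38, 12.67 and 12.53 in primed and 12.20, 12.79, 12.91 and 12.63 in unprimed seedlings (0.05, -1.41, -0.24 and -0.10). AT1G51400, annotated as a small photosystem II protein, had 12.40, 11.93, 13.66 and 13.58 in primed and 13.30, 13.28, 13.85 and 13.85 in unprimed seedlings. It was lower at all 4 times (-0.90, -1.35, -0.19 and -0.27). The small membrane subunits PSBW, PSBX and PSBY and the lumenal subunit PSBR lay between -0.32 and -0.23 at 8 h. PSBP2, a weakly expressed relative of the oxygen-evolving subunit gene, was the only member at least 2-fold higher at 24 h. Its values were 4.42, 4.42, 7.04 and 7.00 in primed and 4.45, 4.80, 5.66 and 6.44 in unprimed seedlings (-0.03, -0.38, 1.38 and 0.56), well below the level of the other expressed members of this group, and its 2 late unprimed arrays differed by 0.78. AT4G37230, annotated as a putative PsbO, read at most 2.59 and was not distinguishable from background.

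Assembly factors of photosystem II were lower at 8 h in 3 of 4 cases. PSB27, which binds the unfinished complex in the lumen, had 13.73, 13.35, 14.36 and 14.36 in primed and 14.20, 14.46, 14.46 and 14.48 in unprimed seedlings (-0.47, -1.11, -0.10 and -0.12). With quantile normalization its 8 h value was -0.97. PSB28, known from cyanobacteria as an assembly factor of the same complex, gave -0.50, -1.10, 0.14 and 0.32. Against the mean of the 4 unprimed arrays its 8 h value was -0.67. That smaller value was fixed in advance, because its unprimed 8 h array (12.26) was the highest of the 4. LPA2, a membrane protein of photosystem II assembly, gave -0.46, -1.07, -0.37 and -0.01. LPA19, a relative of PSB27 that takes part in processing the end of the D1 precursor, differed from these 3 genes. It had 11.35, 11.62, 12.11 and 11.86 in primed and 11.09, 11.34, 11.39 and 11.20 in unprimed seedlings, higher in 4 of 4 pairs of arrays (0.26, 0.28, 0.72 and 0.66).

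The APO genes, named for the accumulation of photosystem I, were split. They encode RNA-binding proteins of organelles, of which APO1 acts in the splicing of plastid transcripts and APO3 in that of mitochondrial ones. APO2 had 10.82, 10.85, 11.73 and 11.62 in primed and 11.69, 12.05, 11.79 and 11.72 in unprimed seedlings (-0.87, -1.20, -0.06 and -0.10). Its 8 h value against the mean of the 4 unprimed arrays was -0.96. That smaller value was fixed in advance, because the unprimed 8 h array was the highest of the 4. APO3 had 8.31, 8.19, 7.46 and 7.24 in primed and 7.12, 7.04, 7.57 and 7.37 in unprimed seedlings, with both early primed arrays above all other arrays (1.19, 1.15, -0.11 and -0.13). APO1 gave 0.46, 0.41, -0.39 and 0.02. APO4 had 6.58, 6.49, 5.96 and 5.66 in primed and 6.21, 6.11, 7.00 and 6.02 in unprimed seedlings. Its difference of -1.04 at 24 h, the only member past 2-fold lower at that time, rests on the unprimed 24 h array, which was 0.98 above the unprimed 48 h array, the widest gap of any member between these arrays. Against the mean of the 4 unprimed arrays the 24 h difference was -0.38. A smaller difference was fixed in advance here too, because the unprimed 24 h array was the highest of the 4. Of the members annotated by a protein domain alone, AT5G52180 gave -0.61, -0.49, 0.42 and 0.39, and AT4G11710, read together with another gene, was at the floor in every array.

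Within each treatment, the photosystem transcripts were higher late than early, and more members showed this in primed seedlings. The primed arrays of 24 and 48 h were both above those of 4 and 8 h for 39 of 44 members (23.8% of all probe sets). The same held in unprimed seedlings for 28 members (18.2%). In primed seedlings 36 members were lower at 8 h than at 4 h (38.6% of all probe sets), and the median of this step was -0.41. From the 8 h to the 24 h array, 17 members gained at least 2-fold (6.92%), with a median step of 0.79. In unprimed seedlings the medians were 0.03 for 8 h minus 4 h and 0.26 for 24 h minus 8 h, and 5 members gained at least 2-fold in the second step (3.11%). By their labelled times, late arrays differ from early ones in the time since the heat, in age and in the hour of the day, which cannot be told apart here.

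The size of this late minus early difference ordered the members differently in the 2 treatments. The mean of the 24 and 48 h arrays minus the mean of the 4 and 8 h arrays was 4.28 in primed and 5.32 in unprimed seedlings for LHCB2.3, the widest in both. LHCB2.2/LHCB2.1 gave 0.85 in primed and 2.56 in unprimed seedlings, and LHCB1.4/LHCB1.5 gave 0.45 and 1.65. For the 3 LHCII member probe sets the late level was thus further above the early one in unprimed seedlings. Outside the rule, LHCB3 went the same way. The shared probe set of LHCB1.1, LHCB1.2 and LHCB1.3 did not: it read 14.76, 14.39, 14.89 and 14.93 in primed and 14.84, 14.66, 14.89 and 14.95 in unprimed seedlings. A lower primed than unprimed difference was not particular to LHCII. It was also found for APO3 (-0.90 in primed and 0.39 in unprimed seedlings), APO4 (-0.72 and 0.35), APO1 (-0.59 and 0.03) and LHCA4 (0.95 and 1.33). PSAL, PSBQ2, PSAF and AT4G37230 had it by smaller gaps. Among the members, the late level was further above the early one in primed seedlings for LHCA6 (1.83 in primed and -0.46 in unprimed seedlings). PNSL1, with 1.59 and -0.17, and PSBP2, with 2.60 and 1.43, did the same.

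**Figure D4:**
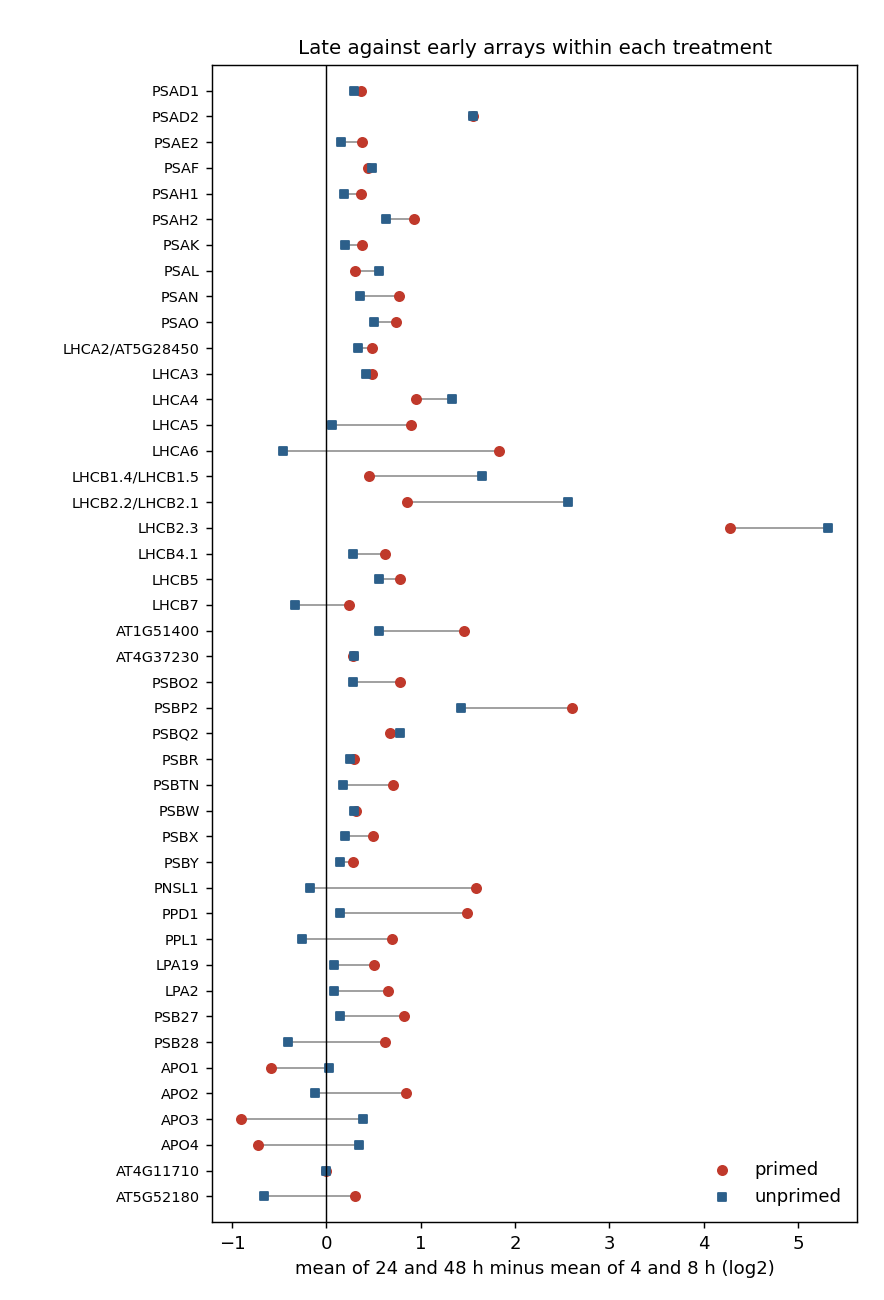
Mean log2 value of the 24 and 48 h arrays minus that of the 4 and 8 h arrays within primed (circles) and unprimed (squares) seedlings for each member, 2 arrays in each mean. Primed circles lie right of the unprimed squares for most members. The 3 major LHCII member probe sets show the reverse (LHCB2.2/LHCB2.1 0.85 primed and 2.56 unprimed). So do other members, among them APO3 (-0.90 primed and 0.39 unprimed), APO4, APO1 and LHCA4.

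Over the 4 pairs of arrays no member had a mean effect of priming that passed the test. With limma, fitted across all 22746 probe sets with the time point as a block, 0 probe sets and 0 members passed an adjusted p of 0.05. The unadjusted p was under 0.05 for 2029 probe sets (8.92%) and for 1 member. That member was LPA19, with a mean difference of 0.48 (standard error 0.11, adjusted p 0.491 from limma, higher in 4 of 4 pairs). LHCB2.2/LHCB2.1 had a mean of 0.87 (standard error 0.50, adjusted p 0.616 from limma). It was also higher in 4 of 4 pairs, but by only 0.02 in those of 24 and 48 h. LHCA6 had -1.14 (standard error 0.70, adjusted p 0.634 from limma). Time points are not replicates, and these errors also hold the change of the effect over time.

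The effect of 4 and 8 h set against that of 24 and 48 h gave no call either. In limma 0 of 22746 probe sets passed, 3822 (16.8%) had an unadjusted p under 0.05, and among the members 3 were higher and 7 lower early than late by the unadjusted p. The lowest adjusted p of a member was 0.0779 from limma, for APO3, whose effect was 1.29 higher early than late (standard error 0.02). PNSL1 gave -1.76 (standard error 0.45) and LHCA6 -2.30 (standard error 0.78), with adjusted p of 0.286 and 0.354 from limma. With 2 residual degrees of freedom the standard error of a single probe set is itself poorly known.

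Nuclear photosystem subunit, LHC-like and assembly genes that the annotation rule does not reach were mostly lower at 8 h as well. Their 21 probe sets for 23 genes had medians of -0.17, -0.74, 0.01 and -0.03 at the 4 times, and 20 of 21 were below 0 at 8 h. The 8 h median was -0.90 for the 7 LHC-like and -0.46 for the 3 assembly probe sets. Among subunits it was -0.41 for the photosystem I core (2 probe sets) and -0.59 for that of photosystem II (3). It was -0.17 for LHCII (2) and -0.87 for the minor antenna (3), and LHCA1 gave 0.54. LHCB4.3, a minor antenna gene, had 7.77, 8.16, 8.10 and 8.37 in primed and 8.10, 11.61, 8.46 and 8.14 in unprimed seedlings. Its difference of -3.45 at 8 h rests on 1 high unprimed array. OHP1, a one-helix protein that binds chlorophyll during assembly of photosystem II, gave -1.49, -1.72, 0.12 and 0.08, and SEP2, a stress-enhanced relative of the antenna proteins, gave -1.25, -1.22, 0.47 and -0.03. PSBS, the sensor of energy dissipation in photosystem II, gave -0.08, -0.98, 0.24 and 0.13.

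Plastid genes whose annotation names a photosystem were mostly lower already at 4 h. Among their 14 probe sets, 12 were below 0 at 4 h. At least 2-fold lower were 6 at 4 h and 3 at 8 h, while 3 passed 2-fold upward at 24 h. The medians were -0.73, -0.85, 0.24 and -0.30. Not all encode subunits: ATCG00360 (-1.69 at 4 h, 1.09 at 24 h) and ATCG00520 (-1.17 and 1.55) are annotated as required for photosystem I assembly. The psaA probe set was near the floor, with 2.83 in the primed and 3.91 in the unprimed array of 4 h. The subunits CP47 and PSII-T gave 0.28 and 0.04 at 4 h. The nuclear members at 4 h had a median of -0.01. The part of the labelling of plastid transcripts, few of which carry poly(A) tails, was not tested.

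Transcripts of chlorophyll synthesis and carbon fixation genes were also lower at 8 h. The chlorophyll synthesis list has 15 probe sets, of which 10 were at least 2-fold lower at 8 h and 1 at 4 h, and the medians were -0.22, -1.07, 0.05 and -0.05. DVR, the divinyl reductase, gave -1.11, -2.20, -0.55 and -0.10. CHLM, the methyltransferase of Mg-protoporphyrin, gave -0.80, -1.44, -0.17 and -0.06, and CHLI2 and CHLD, subunits of Mg-chelatase, gave -1.39 and -1.07 at 8 h. GUN4, which activates Mg-chelatase, had -1.52 at 8 h and was the 1 gene of the list past 2-fold higher at 24 h (1.02). Of 13 Calvin cycle probe sets, 5 were at least 2-fold lower at 8 h and 1 at 4 h, with medians of -0.47, -0.96, 0.06 and 0.06. FBA1, an aldolase, gave -2.49 at 8 h, PRK, which makes the acceptor of carbon dioxide, gave -2.25, CFBP1, a fructose bisphosphatase, gave -1.78, and GAPA2, a glyceraldehyde phosphate dehydrogenase, gave -1.36. Of 14 probe sets for electron transport, 3 were at least 2-fold lower at 8 h, with medians of -0.25, -0.62, -0.03 and 0.01. PGRL1A, of cyclic electron flow, gave -1.71, and PETE1, a plastocyanin, gave -1.61. FNR2, which passes electrons to NADP+ and so makes NADPH, gave -0.94, and ATPC1, of the ATP synthase, gave -0.65.

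**Figure D5:**
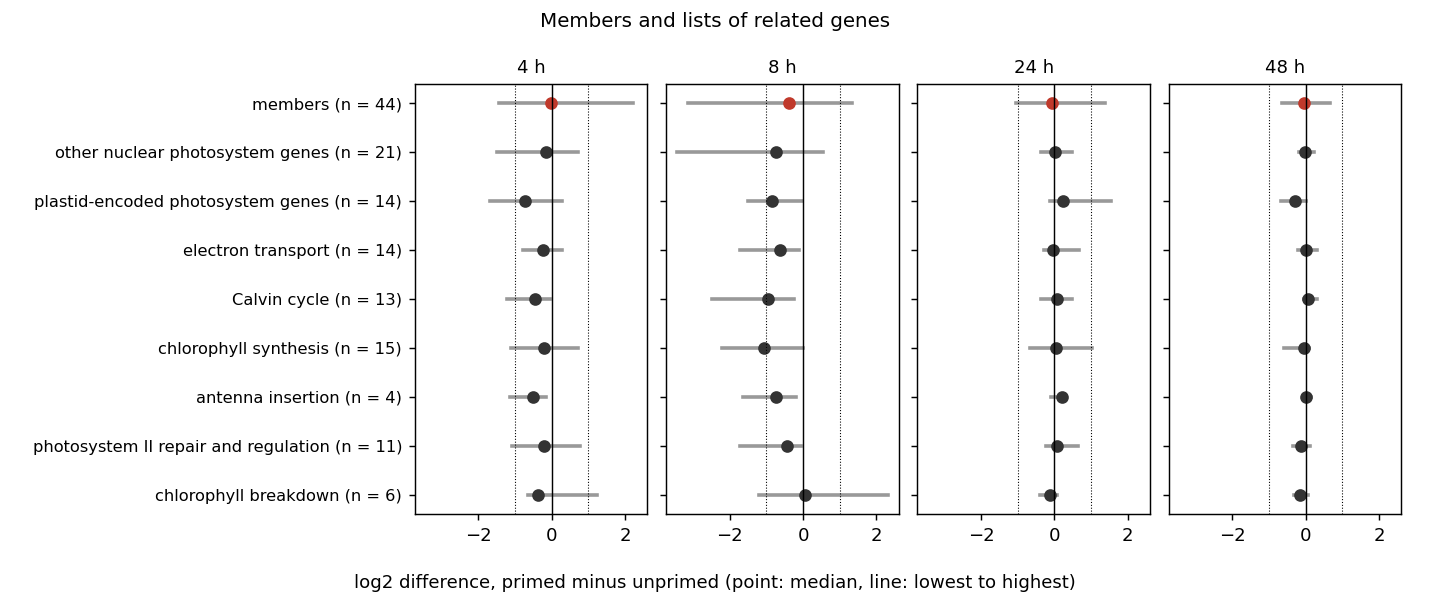
Median (point) and range (line) of the log2 difference, primed minus unprimed, for the members (red) and for lists of related genes at 4, 8, 24 and 48 h, with dotted lines at 2-fold and n the number of probe sets. The lowest medians stand in the 8 h panel (chlorophyll synthesis -1.07, Calvin cycle -0.96, members -0.39), and the 24 and 48 h medians lie near 0 for most lists.

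Genes that insert, repair and take apart the antenna differed within each of these lists. All 4 genes of the route that inserts LHC proteins into the thylakoid were below 0 at 8 h. CPFTSY, the receptor of the chloroplast signal recognition particle, gave -1.65, and CPSRP43, its LHC-binding subunit, gave -1.13, whereas CPSRP54 and ALB3, the insertase, gave -0.35 and -0.19. Of 11 probe sets for repair and regulation of photosystem II, 2 were at least 2-fold lower at 8 h. They were those of the lumenal proteases DEG5 (-1.73) and DEG8 (-1.33), while FTSH1, FTSH2, FTSH5 and FTSH8, the thylakoid proteases that degrade damaged D1 protein, lay between -0.32 and -0.11. TAP38, a phosphatase of LHCII, gave -0.64, and STN8, a kinase of photosystem II proteins, gave -0.07 with its own probe set and -0.44 with one shared with another gene. In chlorophyll breakdown, PPH, which removes the phytol tail, had 9.23, 9.94, 7.93 and 8.24 in primed and 7.99, 7.62, 8.01 and 8.18 in unprimed seedlings (1.24, 2.32, -0.08 and 0.06). RCCR and NOL, further enzymes of breakdown, gave -1.19 and -1.18 at 8 h, and NYC1, a chlorophyll b reductase like NOL, gave -0.19.

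The 10 regulators of photosystem genes that were listed had no common direction. GLK1 and GLK2, transcription factors that activate antenna and chlorophyll genes, gave 0.27, -0.51, 0.24 and 0.01 and -0.06, -1.74, 0.86 and 0.01. GLK2 read 7.33, 6.45, 8.64 and 9.21 in primed and 7.39, 8.19, 7.78 and 9.20 in unprimed seedlings. GNC and GNL, GATA factors of greening, were lower early and higher late, with -1.11, -0.89, 0.55 and 0.22 for GNC and -4.87, -1.54, 1.53 and 1.09 for GNL. GNL read 3.62 in the primed and 8.49 in the unprimed array of 4 h. HY5, an activator of light-responsive genes, gave -0.61, 0.08, 0.15 and -0.29. PIF1, PIF3 and PIF4 are phytochrome-interacting factors, which restrain greening in the dark or elongate stems. PIF3 gave 0.74, 1.14, -0.05 and 0.04. PIF1 gave 0.07, 1.33, -0.70 and -0.62, and PIF4 gave 2.61, 0.55, 0.26 and -0.80. The early values of PIF1 and PIF4 rest on levels near the floor. PIF1 read 3.35 in the primed and 2.02 in the unprimed array of 8 h. PIF4 read 5.28 and 2.67 at 4 h and 2.67 and 2.12 at 8 h. CCA1 and LHY are morning genes of the circadian clock, and CCA1 was first described as a factor that binds an LHCB promoter. CCA1 had 5.31, 5.84, 8.87 and 7.46 in primed seedlings. In unprimed seedlings it was at the floor at 4 and 8 h and read 4.92 and 5.12 at 24 and 48 h, so that it was higher in all 4 pairs. LHY had 2.04, 2.03, 7.23 and 4.15 in primed and 2.03, 5.40, 2.67 and 2.67 in unprimed seedlings (0.01, -3.37, 4.56 and 1.48).

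Markers of other tissues and of darkness also differed between the arrays. The 11 root markers had median levels of 3.09 in the primed and 4.25 in the unprimed array of 4 h (6 of 11 at least 2-fold lower) and of 3.39 and 3.88 at 8 h (3 of 11 lower and 1 higher). At 8 h their single values lay between 2.33 and 10.08 in the primed and between 2.03 and 9.69 in the unprimed array. The 11 seed markers had medians of 2.01 in the primed and 3.81 in the unprimed array of 4 h (6 of 11 at least 2-fold lower and 1 higher). They were close to the floor at 8 h, with medians of 2.04 in the primed and 2.02 in the unprimed array, but at 24 h the median was at the floor in the primed and 6.22 in the unprimed array, and 8 of 11 were at least 2-fold lower in primed seedlings. Of the 3 genes induced by darkness or sugar starvation, SEN1 gave -2.14, 3.02, -1.07 and -1.87 and ASN1 gave -0.08, 4.03, -0.87 and -1.24, and both were thus higher in primed seedlings at 8 h alone, the time with the lowest median of the members. In the arrays of 8 h, SEN1 read 9.56 in primed and 6.54 in unprimed seedlings and ASN1 read 6.03 in primed seedlings and was at the floor in unprimed ones. DIN10 gave -0.18 at 8 h. The part of these markers in the result was not tested.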

How the data were processed

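Whole Col-0 seedlings were profiled on 8 ATH1 arrays, 1 pool of seedlings per treatment and time point. Normalization between arrays was done by the authors, who deposited the values as log2. GCRMA and RMA are the tools listed by the submitters' processing notes, with no version, and no genome build was named in the sources read here. The 2 tables differed in 0 cells. The 4 columns of the authors' own differences were not used. Of 22810 probe sets, 64 controls were left out. The number of arrays and the floor at 2 limit the precision.

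Primed minus unprimed differences were calculated from the deposited values, and members were counted at 2-fold beside all probe sets (pandas 2.3.3, Python 3.11.15). The mean effect (time point as a block) and the early minus late effect were tested with limma 3.58.1 in R 4.3.3 over all probe sets, with Benjamini-Hochberg adjustment and 3 and 2 residual degrees of freedom. The limma script was tested on simulated data. Probe sets were assigned to genes by the deposited annotation, and symbols were checked against RefSeq (TAIR10.1). The members and lists were chosen with earlier results of these data known. Genes were named by rule: members past 2-fold at 2 or more times, the highest and lowest mean in each role group, the member with the widest gap between the unprimed arrays of 24 and 48 h, all listed regulators, and up to 4 genes of each pathway list with the largest absolute mean. Other named genes were chosen after their values were seen. The alternatives were other normalizations and centrings, without dim probe sets (mean under the 30th percentile), a raised floor, probe sets of 1 gene, the mean of the 4 unprimed arrays as control, the other table, other fold limits, a limma fit with trend and robust prior, a fit without the block, and leaving out each pair of arrays.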

Additional observations from a re-analysis of the deposited data

Results flagged for a closer look

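For 9 of 44 members (2967 of all 22746 probe sets) both early differences (4 and 8 h) had one sign and both late differences (24 and 48 h) the opposite sign. With 1 array per condition, only the limma contrast of early minus late tests this, and none of the 9 passed it over all probe sets. The mean early difference minus the mean late difference was 1.29 for APO3 (adjusted p 0.0779 from limma), 1.07 for APO4 (adjusted p 0.31), 1.19 for LHCB1.4/LHCB1.5 (adjusted p 0.327) and 0.38 for LHCA4 (adjusted p 0.177), higher in primed seedlings early and lower late. It was -0.96 for AT5G52180 (adjusted p 0.12 from limma), -0.57 for LHCB7 (adjusted p 0.283), -1.03 for PSB28 (adjusted p 0.301), -0.25 for PSAO (adjusted p 0.571) and -1.18 for PSBP2 (adjusted p 0.359), lower early and higher late. Several single differences were no larger than the 0.12 by which members typically differed between the unprimed arrays of 24 and 48 h: the 24 h value of APO3 (-0.11), both late values of LHCA4 (-0.04 and -0.11), both early values of LHCB7 (-0.09 and -0.05), the 4 h value of PSBP2 (-0.03), and the 4, 24 and 48 h values of PSAO (-0.02, 0.07 and 0.05). For APO4 the late side rests on the unprimed array of 24 h, and for PSBP2 on levels of 5.66 to 7.04, below the median of each array.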

How the results depend on the processing

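Of the counts, medians and tests of the report, 97 values under the alternatives differed from the reported ones by no more than 0.12 on the log2 scale (the members' median absolute difference between the unprimed arrays of 24 and 48 h) or 1.5 times in a count, and 24 moved further. Of the single values of members past 2-fold, 125 were within that range, 38 moved and 2 reversed. Many of the 125 could not move. The other table differed in 0 cells, and the levels behind these values lay above the raised floor and the dim limit (2.39). Restricting to probe sets of 1 gene recalculated no single value. In this order, these alternatives supplied 21, 21, 21 and 18 of the 125 values. Centring on the array medians shifted the differences by 0.05, -0.06, -0.02 and 0.05 at the 4 times. Its 21 single values thus could not leave the range of 0.12. The other table also supplied 12 of the 97. The raised floor supplied another 12, and it could change values of only the 2 members below 3 in all arrays. Centring on the reference genes gave 5 members lower at 4 h and medians of -0.27 at 4 h and -0.53 at 8 h. Restricting to probe sets of 1 gene left 1 member higher at 8 h. When each primed array was set against the mean of the 4 unprimed arrays, 1 was higher and 5 lower at 4 h (median -0.22), 0 higher at 8 h (median -0.65), 3 higher and 0 lower at 24 h (median 0.08) and 3 higher at 48 h (median 0.11), and LHCB2.3 at 4 h reversed to -1.40 and LHCB1.4/LHCB1.5 at 8 h to -0.27. This control mixes early and late arrays. A 1.5-fold limit gave 6 lower at 4 h, 3 higher at 24 h, and 1 higher and 1 lower at 48 h. A 4-fold limit gave 1 higher and 0 lower at 4 h, 0 higher and 2 lower at 8 h, and 0 higher and 0 lower at 24 h. In each limma alternative, leaving out each pair of arrays included, 0 members passed, while up to 21 of all probe sets did.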

Other observations

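LHCA5, LHCA6 and PNSL1 belong to, or link photosystem I with, the chloroplast NDH complex, which feeds electrons from ferredoxin back into the plastoquinone pool. The other nuclear subunits of this complex were listed after these values had been seen, so their values are a description without a test. Of 13 probe sets, 5 were at least 2-fold lower in primed seedlings at 4 h and 10 at 8 h, and the medians were -0.83, -1.66, -0.02 and 0.03 at 4, 8, 24 and 48 h. PNSL3, a lumenal subunit, had 8.81, 8.63, 9.51 and 9.28 in primed and 10.71, 11.46, 9.63 and 9.10 in unprimed seedlings (-1.90, -2.83, -0.12 and 0.18). PNSL4, also lumenal, gave -1.43, -2.45, -0.07 and -0.26, and PNSB3, a subunit of the stroma-exposed part, gave -1.42, -2.31, 0.13 and -0.07. NDHN, of the part near the ferredoxin site, gave -1.19, -2.20, 0.13 and 0.17. All 13 were below 0 at 4 and at 8 h. At 24 and 48 h none of them was past 2-fold.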
